A study of Mus musculus with 6 samples.

Results

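The genes described here are the transcription factors of the NF-kB family, the proteins that hold them back or release them, and a set of inflammatory genes that they switch on. The module lists 31 genes. A gene was taken as measured when at least 1 probe set of the array carried its symbol and no other, and where a gene has several such probe sets the one with the highest mean log2 intensity stands for it. 29 of the 31 genes were measured, out of 22180 genes with such a probe set, and each of the 29 has exactly 1. For Nfkb1 and Chuk no probe set met this rule, and they were not analysed here. 12 of the measured genes are components of the pathway and 17 are target genes.

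Gene expression was measured in total retinal RNA with Affymetrix Mouse Gene ST arrays, each sample on an array of its own. 3 samples came from Sirt6 knock-out mice (KO) and 3 from Sirt6 wild-type mice (WT), all of the strain 129SvJ and 15 days old, with no further treatment in either genotype. Sirt6 encodes an NAD-dependent deacylase that acts on histone H3. The sources used here do not state whether the RNA of each sample is that of 1 animal, and the p-values below measure the spread between these samples, and the labels describe no restriction of the knock-out to a cell type.

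NF-kB works as a dimer. RELA, RELB and REL carry the domain that activates transcription, while the products of Nfkb1 and Nfkb2 are made as longer precursors and lack it. In a resting cell the IkB proteins (Nfkbia, Nfkbib, Nfkbie) keep the dimers in the cytoplasm. Receptors for TNF, interleukin-1 or microbial products recruit adaptors such as TRAF2, which lead to activation of the IkB kinase, a complex of the catalytic subunits encoded by Chuk and Ikbkb and the regulatory subunit encoded by Ikbkg. The kinase marks IkB for degradation, and the freed dimers enter the nucleus and bind sites in the promoters of cytokine, chemokine and adhesion genes. They also induce genes that end the response, among them Nfkbia itself and Tnfaip3, so that several components are targets as well. In the retina these genes are known mainly from activated microglia, Mueller glia and vessels. SIRT6 has been described in other cells as a partner of RELA that removes acetyl groups from histone H3 at promoters of NF-kB target genes. The comparison of KO and WT retinas reads the RNA levels of the module. Neither binding nor acetylation was measured on these arrays.

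The binding site that gives the family its name can be read in the promoters of several members. Promoter windows of RefSeq on GRCm38.p6 were at hand for 21 of the 29 measured genes, and the 250 bases before each start were searched on both strands for GGGNNNTTCC, a common form of the NF-kB site. 9 of the 21 held at least 1 match, against 4.63% of 27025 such windows. The share is counted by gene for the members and by window for the rest. The members were listed as NF-kB genes, so that their share is not a test of the site. These were Rel, Nfkb2, Nfkbia, Nfkbie and Tnfaip3 of 10 components, and Il6, Cxcl1, Cxcl2 and Cxcl10 of 11 target genes. A match is a run of letters and not a proof of binding, and the lack of one says only that these letters are not in this window. The matches of 4 components and 2 chemokines are shown because the results return to these genes; each is given on the strand of its gene, with up to 20 bases on either side. Capitals mark the matches, which read as its reverse complement, GGAANNNCCC, where the match is on the other strand.

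Tnfaip3: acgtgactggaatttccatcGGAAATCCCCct
Nfkb2: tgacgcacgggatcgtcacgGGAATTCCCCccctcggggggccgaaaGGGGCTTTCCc
Nfkbia: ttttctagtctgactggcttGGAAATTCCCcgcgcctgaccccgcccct
Nfkbie: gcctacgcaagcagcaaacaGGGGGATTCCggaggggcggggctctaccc
Cxcl2: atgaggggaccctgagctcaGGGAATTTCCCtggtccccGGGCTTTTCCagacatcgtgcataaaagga
Cxcl10: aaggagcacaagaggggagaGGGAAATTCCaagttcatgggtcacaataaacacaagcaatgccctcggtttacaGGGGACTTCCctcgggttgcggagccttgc

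The stretch of Tnfaip3 lies at chr10:19015411-19015442 on the minus strand, that of Nfkb2 at chr19:46304679-46304736 on the plus strand, that of Nfkbia at chr12:55492648-55492696 on the minus strand and that of Nfkbie at chr17:45555574-45555623 on the plus strand. Those of Cxcl2 and Cxcl10 lie at chr5:90903782-90903850 on the plus strand and chr5:92348964-92349068 on the minus strand. The first run of capitals in Cxcl2 holds overlapping matches on both strands. In Tnfaip3 the match begins at position -12 and in Nfkbia at -29, counted back from the base before the start.

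The array itself set some limits. Sirt6, the disrupted gene, had log2 intensities of 6.47, 7.15 and 6.83 in KO retinas, against 9.34, 9.14 and 9.32 in WT retinas (log2 difference -2.45, standard error 0.20, adjusted p = 0.032 from limma), and it was the single probe set of 23521 that passed the adjusted threshold (0.00425%). At an unadjusted p under 0.05, 0.897% of the probe sets were higher and 0.961% lower in KO. In total RNA of a whole retina, fewer cells of a type and less RNA per cell cannot be told apart. As a rough background, the 95th percentile of the 1108 olfactory receptor probe sets was used, since these genes are largely silent in retina. It ran from 6.73 to 7.53 in KO and from 6.46 to 7.57 in WT samples, on the log2 scale. The KO values of Sirt6 lay below it in each sample, so that the Sirt6 level in KO is a bound. 16 of the 29 members (55.2%) exceeded it in at least 1 sample, against 65.5% of all probe sets: 9 of the 12 components but only 7 of the 17 target genes. Of these members, Nfkbie, Icam1 and Cd40 exceeded it in WT samples only, so that their KO levels are bounds. At the 75th percentile, 28 members exceeded the background and Il6 alone did not. Probe sets differ in affinity, and the levels of different genes are therefore not compared.

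No member of the module changed by the test. 0 of 29 passed at an adjusted p under 0.05 from limma over all probe sets (every adjusted p = 0.9999), and at an unadjusted p under 0.05 there were 0 higher and 0 lower (1.86% of all probe sets passed in either direction). With the replicate number as a block, which compares each KO sample with the WT sample of the same number, 0 members passed at an adjusted p (0.0128% of all probe sets did). In that fit 1 member was lower unadjusted (Tnfaip3, unadjusted p = 0.042 from limma, adjusted p = 0.679) and 0 were higher, against 3.54% lower and 3.77% higher among all probe sets. The log2 differences between KO and WT ran from -0.33 (Tnfaip3) to 0.20 (Nos2) with a median of -0.03, and 16 members had a lower mean in KO (55.2%, against 51.8% of all probe sets). Their standard errors lay between 0.15 and 0.33. The 95% confidence intervals of all 29 stayed within 1 log2 unit on either side of 0, the lowest bound being -0.75 (Cxcl1) and the highest 0.83 (Cxcl2), and those of 7 stayed within 0.5. A change of 2-fold in signal thus lay outside the interval of every measured member, while the differences seen were not detectable beyond the spread of 3 samples against 3. For the 13 members not above the background in any sample, the interval bounds the signal and not the change in RNA.

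**Figure D1:**
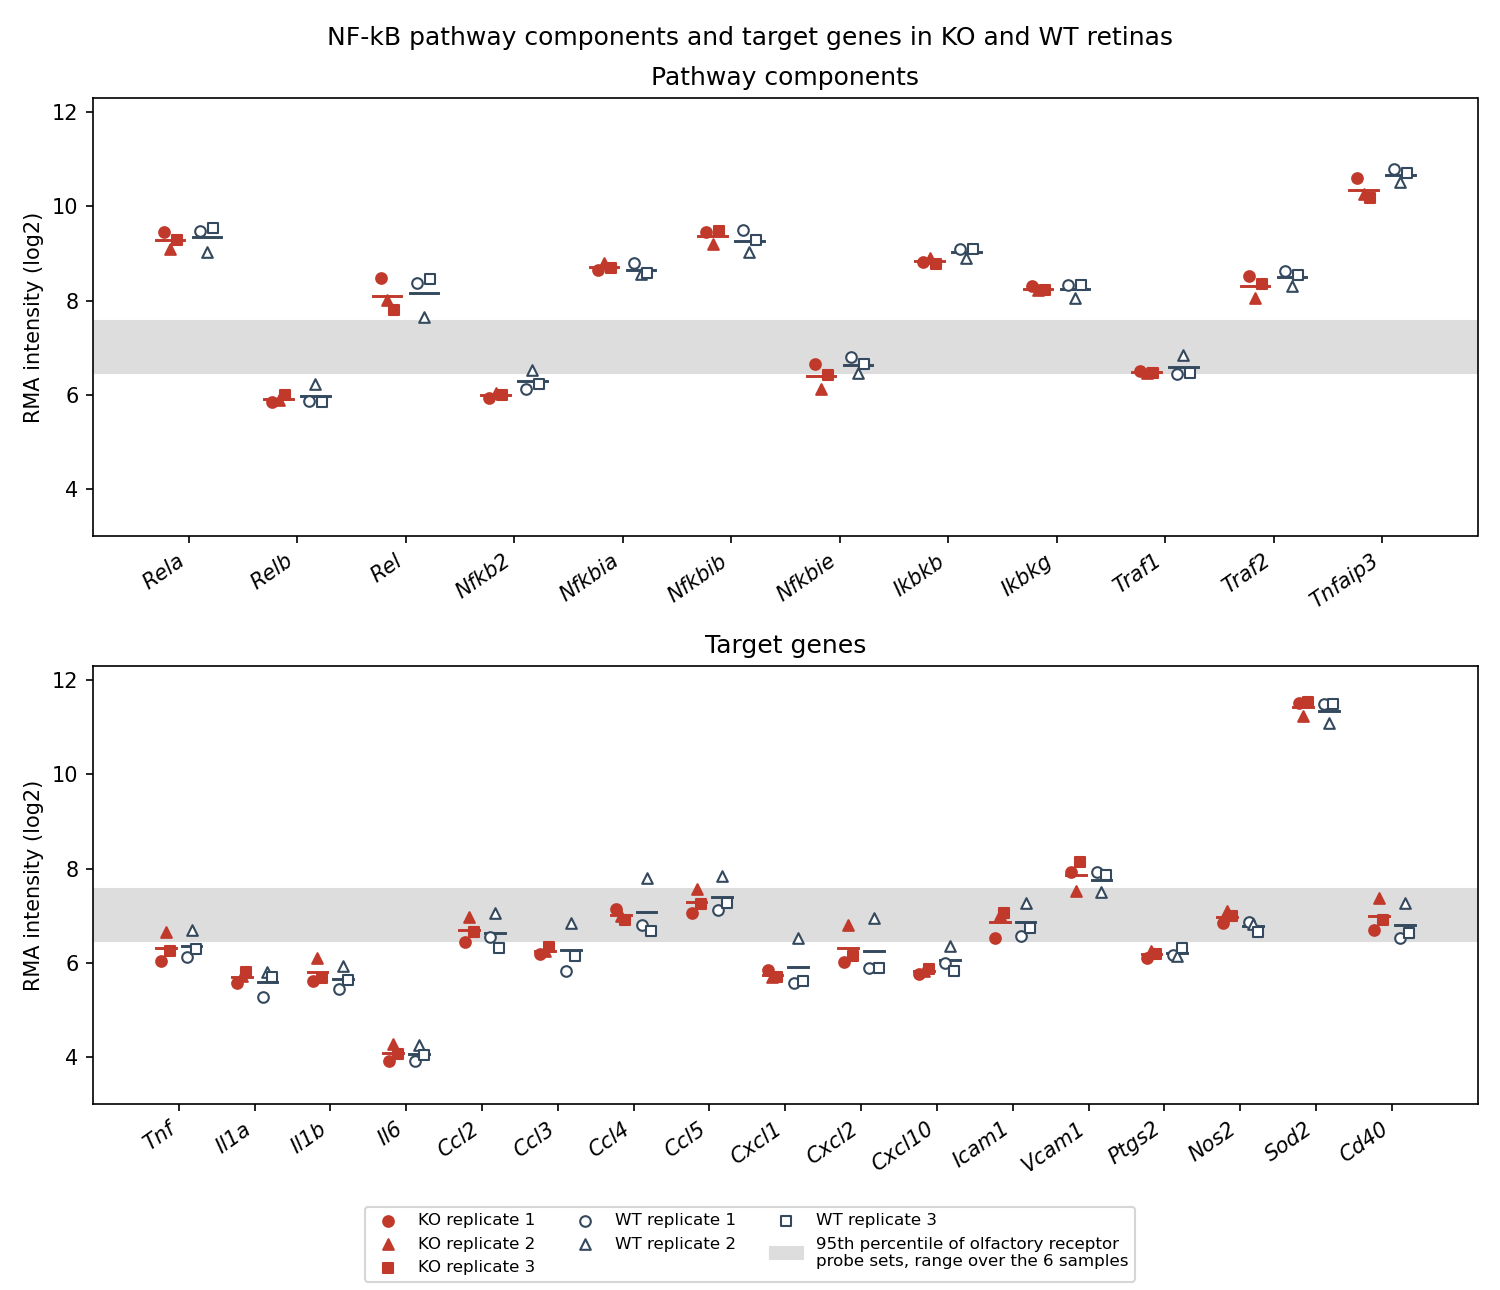
RMA intensity on a log2 scale (y axis) of each measured gene in the 3 KO samples (filled, left of each pair) and the 3 WT samples (open, right), with pathway components in the upper and target genes in the lower panel. Horizontal lines are group means, the grey band is the range over samples of the olfactory receptor 95th percentile (6.46 to 7.57), and KO and WT overlap for every gene but Nfkb2.

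Among the transcription factors, Rela, the subunit of the most common dimer, had log2 intensities of 9.46, 9.10 and 9.28 in KO retinas, against 9.48, 9.03 and 9.55 in WT retinas. The groups overlapped, and replicate 2 was the lowest sample of each genotype. The log2 difference of Rela was -0.07 (standard error 0.20, 95% confidence interval -0.52 to 0.38). Rel, best known from lymphocytes, gave 8.48, 8.02 and 7.80 in KO, against 8.37, 7.65 and 8.47 in WT, again with overlap and a wide spread within each genotype (log2 difference -0.06, standard error 0.27). Relb, the activating partner of the alternative branch of the pathway, was not above the background in any sample, at 5.92 ± 0.08 in KO and 5.98 ± 0.22 in WT (SD, n = 3).

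Nfkb2 was the one member whose groups did not overlap (1 of 29 or 3.45%, against 3.67% of all probe sets with KO below WT, 1.98% with KO above WT and 5.65% in either direction). This gene encodes the precursor p100, from which the partner of RELB is made. Its log2 intensity was 5.93, 6.04 and 6.01 in KO, against 6.13, 6.52 and 6.23 in WT, and all of these values lay below the background of their samples. The 3 KO samples were close together, and WT replicate 2 stood above the other two. The log2 difference was -0.30 (standard error 0.17, unadjusted p = 0.108 from limma). With the replicate block p was 0.054, and an exact permutation test, two-sided, gave p = 0.10, the smallest value that 3 samples against 3 allow.

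The IkB inhibitors did not move as a group. Nfkbia, the inhibitor with the fastest turnover and a target of the factors it binds, had 8.65, 8.80 and 8.69 in KO, against 8.80, 8.57 and 8.59 in WT, a log2 difference of 0.06 (standard error 0.16, interval -0.30 to 0.43). Nfkbib had 9.46, 9.19 and 9.47 in KO, against 9.50, 9.02 and 9.28 in WT, a log2 difference of 0.11 (standard error 0.18). Both overlapped between the genotypes, with a WT sample at the top and another at the bottom. Nfkbie, which binds mainly dimers of RELA or REL, gave 6.65, 6.12 and 6.42 in KO, against 6.79, 6.46 and 6.66 in WT. Each KO sample of Nfkbie was below the WT sample of the same number although the groups overlapped (log2 difference -0.24, standard error 0.19, unadjusted p = 0.244 from limma).

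Of the kinase, Ikbkb, the catalytic subunit that phosphorylates IkB, had 8.82, 8.91 and 8.77 in KO, against 9.10, 8.90 and 9.10 in WT. KO replicate 2 reached the level of WT replicate 2 and the other KO samples lay below every WT sample. The log2 difference was -0.20 (standard error 0.16, interval -0.56 to 0.15). Ikbkg, the regulatory subunit NEMO, was almost level at 8.25 ± 0.05 in KO and 8.24 ± 0.15 in WT (SD, n = 3), with a log2 difference of 0.01 (interval -0.35 to 0.38).

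Tnfaip3 encodes A20, a ubiquitin-editing enzyme that ends signalling from the TNF receptor. It had the largest difference among the 29 members. Its log2 intensity was 10.60, 10.27 and 10.17 in KO, against 10.79, 10.52 and 10.71 in WT, and only KO replicate 1 came within the range of the WT samples. KO differed from WT by -0.19, -0.26 and -0.54 in the pairs of replicates 1, 2 and 3. The log2 difference was -0.33 (standard error 0.18, interval -0.74 to 0.08), a KO level of 0.796 times that of WT, which limma without the block (unadjusted p = 0.101) and the exact permutation test (two-sided, p = 0.20) did not call. With the replicate block the unadjusted p = 0.042 from limma passed and the adjusted p = 0.679 did not. Traf2, an adaptor of TNF receptors, gave 8.53, 8.05 and 8.35 in KO, against 8.62, 8.32 and 8.55 in WT. Each pair was lower in KO and the groups overlapped (log2 difference -0.19, standard error 0.19). Traf1, an adaptor that is itself induced by NF-kB, was not above the background and gave 6.48 ± 0.03 in KO and 6.59 ± 0.23 in WT (SD, n = 3).

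The cytokines at the head of an inflammatory response were all listed below the background in every sample. Tnf, which both activates the pathway and is its target, had 6.03, 6.64 and 6.26 in KO, against 6.12, 6.69 and 6.28 in WT. The pairs differed by -0.09 to -0.03 and replicate 2 was highest in both genotypes (log2 difference -0.05, standard error 0.22). Il1b had 5.62, 6.10 and 5.69 in KO, against 5.43, 5.93 and 5.63 in WT, so that each pair was higher in KO while the groups overlapped (log2 difference 0.14, standard error 0.21). Il1a gave 5.70 ± 0.12 in KO and 5.59 ± 0.28 in WT, and Il6, which did not reach even the 75th percentile of the olfactory receptors, 4.08 ± 0.19 in KO and 4.07 ± 0.17 in WT (SD, n = 3).

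The chemokines, which draw monocytes (the Ccl genes of the module) and neutrophils or T cells (the Cxcl genes), had no call, and 1 library stood apart in them. 5 of the 7 (Ccl2, Ccl3, Cxcl1, Cxcl2 and Cxcl10) were not above the background in any sample, so that their differences and the directions of these describe signal at that level. Ccl4 had 7.13, 6.99 and 6.90 in KO, against 6.80, 7.79 and 6.67 in WT, Ccl3 6.19, 6.25 and 6.34 in KO, against 5.83, 6.84 and 6.15 in WT, and Cxcl1 5.85, 5.70 and 5.70 in KO, against 5.58, 6.52 and 5.61 in WT. In all of these WT replicate 2 was the highest of the 6 samples, and the KO samples lay between it and the lowest WT sample. The log2 differences were -0.08 (standard error 0.29) for Ccl4, -0.02 (0.25) for Ccl3 and -0.16 (0.26) for Cxcl1. WT replicate 2 was also the highest sample for Ccl2, Ccl5, Cxcl2 and Cxcl10, and so for all 7 chemokines. Without it the log2 differences were 0.28 for Ccl4, 0.27 for Ccl3, 0.15 for Cxcl1 and 0.10 for Ccl5, the opposite direction to that with all samples, and 0.27 for Ccl2, 0.43 for Cxcl2 and -0.09 for Cxcl10, with 0 of the 7 called. KO replicate 2 stayed in that fit. It exceeded the mean of the other KO samples by 0.71 for Cxcl2, 0.42 for Ccl2 and 0.41 for Ccl5. For Ccl3, Ccl4, Cxcl1 and Cxcl10 it lay slightly below that mean (-0.08 to -0.0004). Its part in these differences was not tested.

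Cxcl2 had the largest standard error of any member, with 6.01, 6.79 and 6.15 in KO, against 5.88, 6.94 and 5.90 in WT. Replicate 2 stood above the other samples in both genotypes (log2 difference 0.08, standard error 0.33). Ccl2, the main attractant of monocytes, gave 6.69 ± 0.27 in KO and 6.64 ± 0.38 in WT, and Ccl5 7.29 ± 0.25 in KO and 7.40 ± 0.38 in WT (SD, n = 3). Cxcl10, a chemokine induced by interferon and NF-kB together, had 5.77, 5.82 and 5.87 in KO, against 5.99, 6.36 and 5.83 in WT. WT replicate 3 lay among the KO samples and the other WT samples above them (log2 difference -0.24, standard error 0.18, unadjusted p = 0.223 from limma).

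Icam1 and Vcam1, the adhesion molecules by which activated endothelium holds leukocytes, were close between the genotypes. Icam1 gave 6.53, 7.01 and 7.06 in KO, against 6.56, 7.28 and 6.75 in WT, with a log2 difference of 0.01 (standard error 0.24). Vcam1 gave 7.93, 7.53 and 8.15 in KO, against 7.93, 7.50 and 7.86 in WT, with a log2 difference of 0.11 (standard error 0.21). The samples of each gene interleaved.

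Of the enzymes, Nos2, the inducible nitric oxide synthase of activated macrophages and glia, had the largest positive difference. It gave 6.84, 7.10 and 7.00 in KO, against 6.87, 6.82 and 6.64 in WT, with KO replicate 1 inside the range of WT and the other KO samples above it. KO replicates 2 and 3 lay below the background of their own samples (7.53 and 7.13). The log2 difference was 0.20 (standard error 0.16, interval -0.17 to 0.57, unadjusted p = 0.246 from limma). Sod2, the mitochondrial superoxide dismutase, had 11.51, 11.24 and 11.54 in KO, against 11.49, 11.08 and 11.48 in WT. KO exceeded WT in each pair by 0.02 to 0.15, and replicate 2 was the lowest in both genotypes (log2 difference 0.08, standard error 0.19). Ptgs2, which encodes cyclooxygenase-2, was below the background at 6.18 ± 0.07 in KO and 6.21 ± 0.09 in WT (SD, n = 3). Cd40, a receptor of the TNF family on antigen-presenting cells, gave 6.70, 7.38 and 6.91 in KO, against 6.52, 7.26 and 6.63 in WT, higher in KO in each pair by 0.12 to 0.28 with overlap between the groups (log2 difference 0.19, standard error 0.26).

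Counted over the module, KO was below the same-numbered WT sample in all 3 pairs for 6 members (Nfkb2, Nfkbie, Traf2, Tnfaip3, Tnf and Ccl5, or 20.7%, against 15.9% of all probe sets) and above it for 3 (Il1b, Sod2 and Cd40, or 10.3%, against 13.5%). These shares are near those of the array as a whole.

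**Figure D2:**
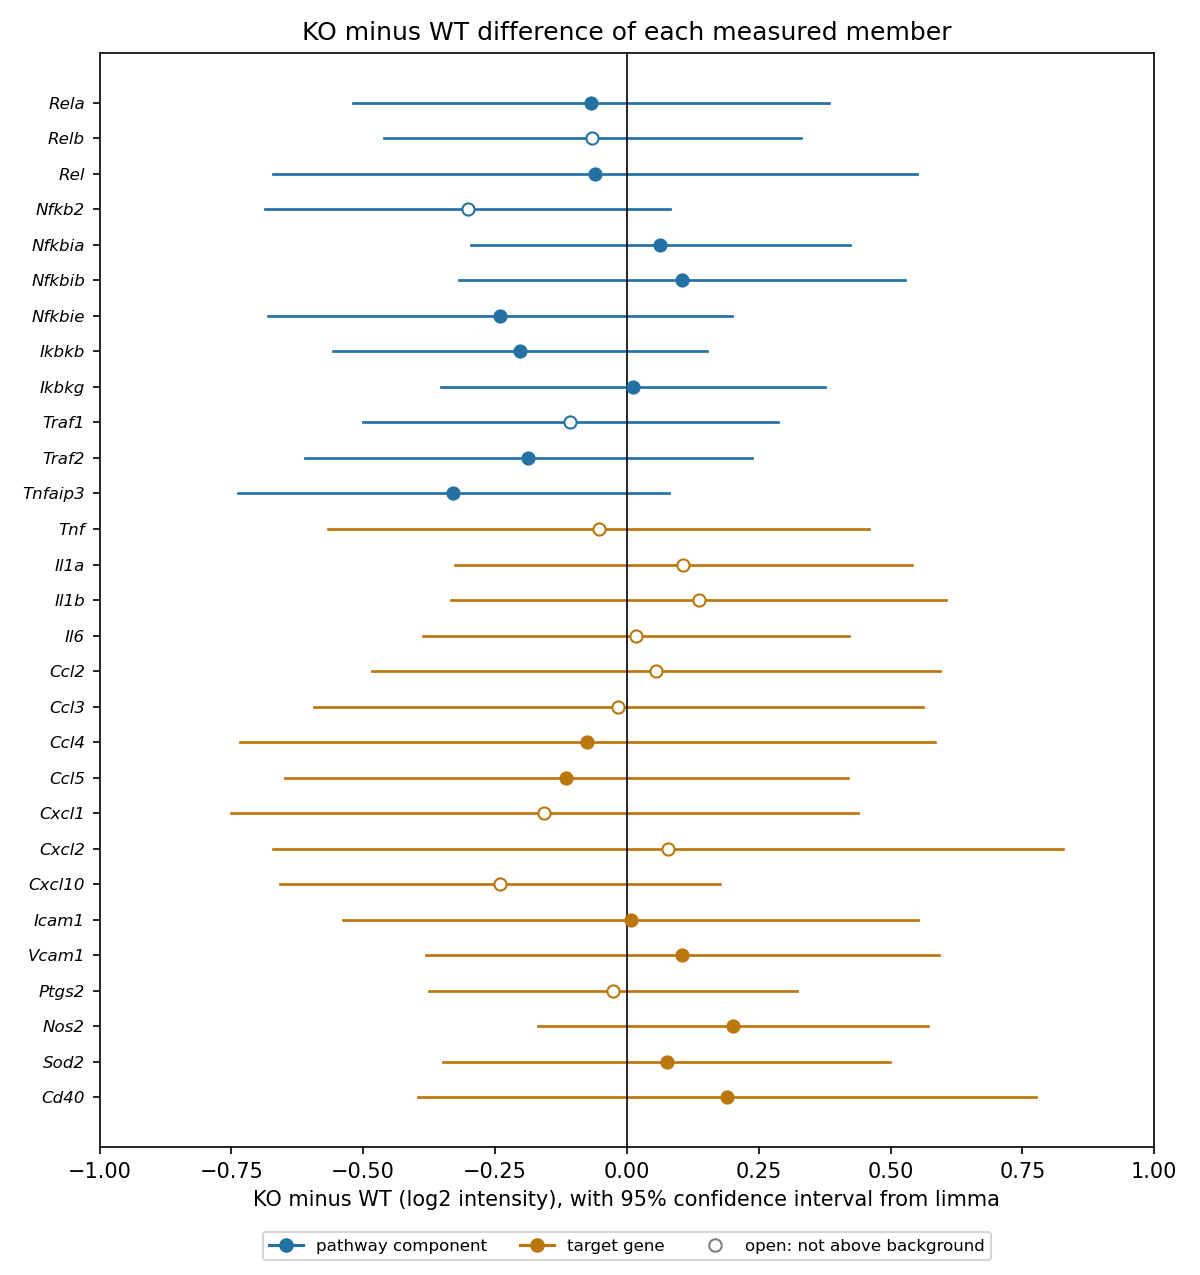
KO minus WT difference in log2 intensity (x axis) of each measured gene with its 95% confidence interval from limma, pathway components in blue and target genes in orange. Open points are genes not above the olfactory receptor background, and every interval includes 0, from -0.33 for Tnfaip3 to 0.20 for Nos2.

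Set against each other, the components had a lower median difference than the targets, by less than the spread between samples. 9 of 12 components had a lower mean in KO, with a median log2 difference of -0.09 and a range of -0.33 to 0.11, and 7 of 17 target genes did, with a median of 0.02 and a range of -0.24 to 0.20. The median of all probe sets was -0.01. The component median minus the target median was thus -0.10, a description with no test. This difference was -0.42 without WT replicate 2 and 0.01 without KO replicate 2, so that a single library moved or reversed it. Where the components that are also targets (Nfkbia, Nfkbie, Nfkb2, Relb, Traf1 and Tnfaip3) were counted with the targets, the difference was -0.05. In single samples, the component median minus the target median of the deviations from the WT mean had a pooled SD of 0.35 within genotypes. The target median is the value of Il6, which is below the background. Among members above the background, 6 of 9 components (median -0.07) and 2 of 7 target genes (median 0.08) were lower in KO. Of these members, Nfkbie (lower in KO) and Icam1 and Cd40 (higher in KO) exceeded it in WT samples only. The counts thus include genes admitted through 1 genotype. Genes with a GGGNNNTTCC match had a median log2 difference of -0.16 (6 of 9 lower in KO), and members with a promoter window and no match one of 0.00 (-0.00427), with 6 of 12 lower. Of the 9, Nfkb2, Il6, Cxcl1, Cxcl2 and Cxcl10 were not above the background in any sample. The median of the 9 is the value of Cxcl1, which changed sign without WT replicate 2.

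The members also varied between samples of the same genotype. Relative to the WT mean of each gene, the target genes had a median log2 deviation of -0.10, 0.15 and 0.02 in KO replicates 1 to 3, against -0.25, 0.32 and -0.12 in WT replicates 1 to 3. The components gave 0.01, -0.14 and -0.13 in KO, against 0.12, -0.16 and 0.03 in WT. Replicate 2 was thus the highest sample of its genotype for the targets, in KO as in WT. For the components it was the lowest WT sample and level with replicate 3 in KO.

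The samples numbered 2 exceeded the mean of the others for 14 of 17 target genes, with a median of 0.42 on the log2 scale, but for only 3 of 12 components, with a median of -0.16. Over all probe sets this median was -0.02, and over the olfactory receptor probe sets it was 0.50. WT replicate 2 alone was the highest of the 6 samples for 13 of the 29 members (44.8%, against 28.6% of all probe sets), 10 of them targets, and the lowest for 7 (24.1%, against 25.3%), 5 of them components. The interquartile range of the log2 values was also narrowest in these samples, at 2.60 in KO replicate 2 and 2.48 in WT replicate 2, against 2.85 to 3.07 in the others. Target genes and olfactory receptors were high in the same samples, and the part of the background signal in the levels of the targets was not tested. Without both replicates numbered 2, 0 members passed at an adjusted p and 1 was lower unadjusted, Ikbkb (log2 difference -0.31, unadjusted p = 0.048 from limma, adjusted p = 0.725), against 2.75% of all probe sets in that fit.

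**Figure D3:**
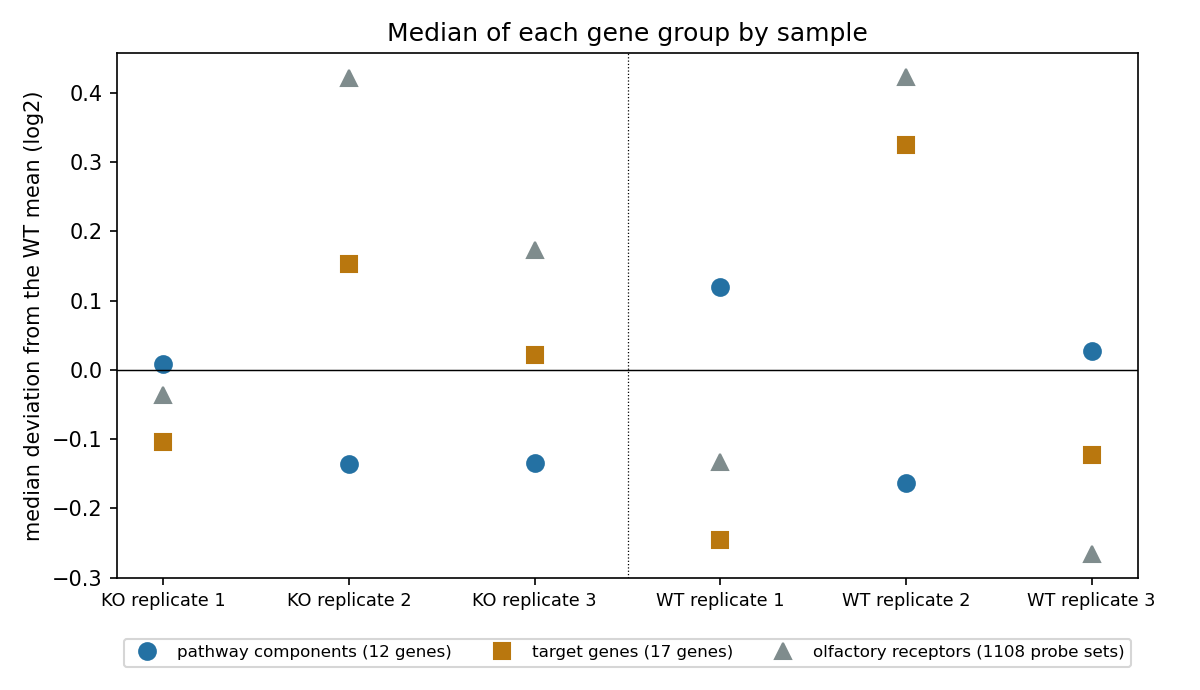
Median deviation from the WT mean of each gene, in log2 intensity (y axis), of 12 pathway components, 17 target genes and 1108 olfactory receptor probe sets in each KO and WT sample (x axis). Target genes and olfactory receptors are highest in replicate 2 of each genotype (target genes 0.15 in KO and 0.32 in WT), where the components are below the WT mean.

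The rest of the pathway was read from further lists. Of 33 upstream receptors and adaptors, 29 were measured and 0 passed at an adjusted or unadjusted p, with a median log2 difference of -0.02 and 15 lower in KO. The smallest unadjusted p belonged to Map3k14, the kinase NIK that starts processing of p100, at 6.99, 6.70 and 6.66 in KO, against 7.05, 6.97 and 7.20 in WT (log2 difference -0.29, standard error 0.17, unadjusted p = 0.121 from limma). Each KO sample was below its WT partner while the groups overlapped. The TNF receptor adaptor Tradd (-0.23), Traf5 (-0.24) and the ubiquitin ligase subunit Rbck1 (-0.19) followed. Of 11 further inhibitors and regulators, all were measured and 0 passed, with a median of 0.01. Tax1bp1, a partner of A20, was higher in KO without overlap (1 of 11 or 9.09%, against 5.65% of all probe sets in either direction). It had 11.32, 11.26 and 11.15 in KO, against 11.11, 10.69 and 11.14 in WT (log2 difference 0.26, standard error 0.18, unadjusted p = 0.182 from limma). Zc3h12a, an RNase that degrades cytokine mRNAs (-0.24), the deubiquitinase Otud7b (0.20) and the nuclear IkB protein Nfkbid (-0.14) did not pass either.

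Of 33 other inflammatory target genes, 32 were measured, with a median log2 difference of 0.04, and 0 passed at an adjusted p. At an unadjusted p under 0.05, 1 was higher in KO (3.12%, against 0.897% of all probe sets) and 1 lower (3.12%, against 0.961%). Lcn2, the iron-chelator carrier lipocalin-2 made by reactive glia, had 7.53, 7.35 and 7.30 in KO, against 6.94, 6.86 and 6.86 in WT. All KO samples of Lcn2 lay above all WT samples (log2 difference 0.51, standard error 0.15, unadjusted p = 0.010 from limma, adjusted p = 0.9999, exact permutation p = 0.10). In replicate 2 of KO and of WT, Lcn2 lay below the background of the sample (7.53 and 7.57). Mmp9, a matrix metalloproteinase, had 7.93, 7.06 and 7.84 in KO, against 8.26, 8.15 and 8.68 in WT, with every KO sample below every WT sample (log2 difference -0.76, standard error 0.26, unadjusted p = 0.020 from limma, adjusted p = 0.9999, exact permutation p = 0.10). KO replicate 2 lay below the background of its sample (7.53), and its pair had the largest difference (-1.09). 5 of the 32 genes did not overlap between the groups (15.6%, against 5.65% of all probe sets in either direction). These were Lcn2, Irf1 (0.16) and Il15 (0.11), higher in KO, and Mmp9 and Xiap, lower in KO. Irf1 and Il15 were not above the background in any KO sample.

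The next genes of that list by unadjusted p were Xiap, an inhibitor of caspases, at -0.34, and Cx3cl1, the neuronal chemokine fractalkine that microglia sense, at -0.36. With the replicate block, 5 genes of the list were lower unadjusted (Mmp9, Xiap, Cx3cl1, Cxcl16 and Il18) and Lcn2 was higher, with adjusted p-values of 0.474 or more from limma. The 5 are 15.6% of the list, against 3.54% of all probe sets lower in that fit. The markers of inner retina neurons were lower too: all 11 measured had a lower mean in KO, with a median of -0.34. Their differences ran from -0.65 (Grm6) to -0.04 (Prkca). At an unadjusted p, 4 were lower (Grm6, Thy1, Nefl and Lhx1, or 36.4%, against 0.961% of all probe sets). With the replicate block 6 were, Onecut1 and Pou4f1 among them (54.5%, against 3.54%), and 0 passed at an adjusted p in either fit. The part of these markers in the Cx3cl1 values was not tested. This list, as all further lists, was chosen with earlier results of these data known. The study had reported Grm6 as lower from the same arrays. The shares of the lists are therefore not a test.

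**Figure D4:**
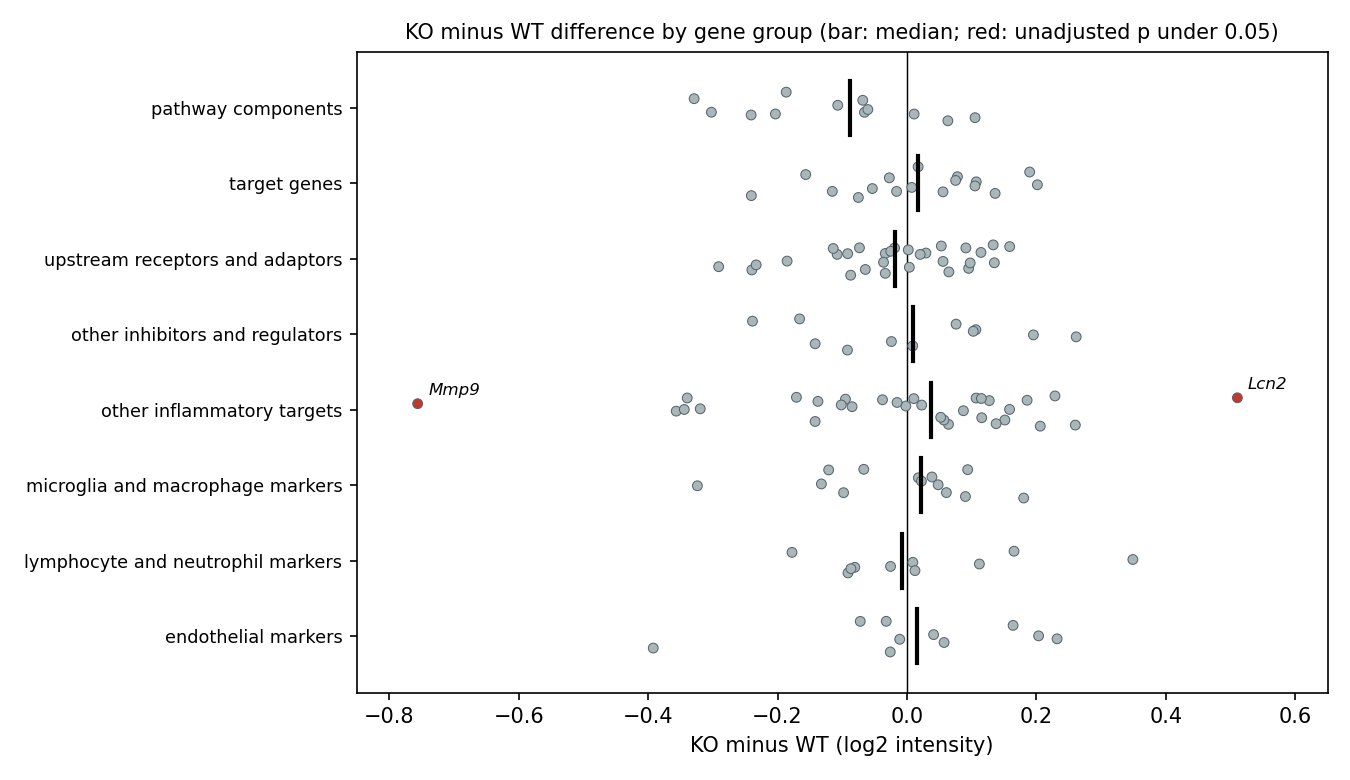
KO minus WT difference in log2 intensity (x axis) of every measured gene of the module, of other genes of the pathway and of the immune and endothelial marker lists (rows), with the median of each row as a bar. Red points had an unadjusted p under 0.05 from limma (Lcn2 at 0.51 and Mmp9 at -0.76), and the medians of the rows lie between -0.09 and 0.04.

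Cells that could bring NF-kB target RNA into a retina were read from their markers. Of 14 markers of microglia and macrophages, 13 were measured, 8 with a higher and 5 with a lower mean in KO, a median log2 difference of 0.02 and 0 calls. Their summed linear intensity ran from 1814 to 2456 in KO and from 1851 to 2183 in WT samples. The defining markers were at 6.34 to 6.52 in KO and 6.23 to 6.50 in WT for Aif1, which is not above the background, at 8.30 to 8.89 in KO and 8.32 to 9.11 in WT for Cx3cr1, and at 6.77 to 7.62 in KO and 7.36 to 7.90 in WT for Csf1r (log2 difference -0.32). Tmem119, a marker of resident microglia, was below WT in KO without overlap (1 of 13 or 7.69%, against 5.65% of all probe sets in either direction). Its log2 difference was -0.13 (unadjusted p = 0.395 from limma), and it was not above the background in any KO sample. Itgam (0.09) and Tyrobp (0.18) did not pass.

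Of 10 measured markers of lymphocytes and neutrophils, 1 exceeded the background, 5 were lower and 0 passed (median -0.01). Cd3e, Cd3g and Cd4 stayed below it in every sample, at 4.79 to 6.27 in KO and 4.70 to 6.43 in WT, and WT replicate 2 was the highest sample for 7 of the 10. Cd3g (0.35), Cd8a (0.17) and S100a9 (0.11) had no call. The 10 endothelial markers, which bear on Icam1 and Vcam1, had a median of 0.02 with 5 lower and 0 calls, and their summed linear intensity ran from 2713 to 4111 in KO and from 2946 to 4241 in WT. Pecam1 differed by 0.20, Cdh5 by -0.03, Kdr by -0.39, Vwf by 0.23 and Flt1 by 0.16, none of them called.

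The remaining lists covered other cells of the retina, the pigment epithelium and the lens. All 10 rod and cone markers, 7 of 9 pigment epithelium markers and all 8 lens markers exceeded the background in at least 1 sample. The rod transducin Gnat1 was at 13.58 to 13.75 in KO and 13.80 to 13.82 in WT, and the 10 rod and cone markers had a median of -0.04 with 0 calls (Pde6a -0.19, Pde6b -0.03, Opn1sw -0.27, Arr3 -0.23). Markers of Mueller glia and astrocytes had a median of -0.06 with 0 of 10 called (Glul -0.06, Rlbp1 -0.26, Slc1a3 -0.08, S100b -0.23, Vim 0.11), and Gfap, which rises in reactive glia, was at 7.63, 7.62 and 8.01 in KO, against 7.75, 7.49 and 7.59 in WT. KO replicate 3 was the highest sample for Gfap and the others interleaved (log2 difference 0.14, standard error 0.18). Prkca and Trpm1 of the bipolar cells differed by -0.04 and -0.13, against -0.65 for Grm6. Pigment epithelium markers had a median of -0.04 with 0 of 9 called (Rpe65 -0.15, Best1 -0.06, Ttr 0.04, Dct -0.35, Tyr 0.15). All 8 lens markers had a lower mean in KO, with a median of -0.89 and 0 calls without the block, while with the replicate block 6 were lower at an unadjusted p (75%, against 3.54% of all probe sets) and 0 at an adjusted p (smallest 0.451 from limma). They varied widely between samples: their summed linear intensity ran from 9994 to 33972 in KO and from 15566 to 54834 in WT (Cryaa -0.27, Cryba1 -0.78, Crybb2 -0.46, Crygs -1.18, Mip -1.17). The lens list too was chosen with earlier results of these data known, so that its share is not a test.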

How the data were processed

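The deposited table holds one intensity for each of 41345 probe sets in each of 6 samples. The authors made these intensity values from the scanned arrays with RMA, which corrects background, equalizes the distributions of the arrays and summarizes probes, in R. Its version, the annotation and the genome build are not given in the sources used here. RMA gives log2 values, but the deposited values run from 8.01 to 17460 and were read as linear, so log2 was taken. On that scale the distributions of the arrays were not equal. Their interquartile range ran from 2.48 in WT replicate 2 to 3.07 in WT replicate 3. Symbols came from the platform's annotation: 23521 probe sets had 1 symbol, 1820 several and 16004 none. The total signal of an array carries no depth, and the number of arrays limits the precision.

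KO was compared with WT (3 samples each) in limma 3.58.1 (R 4.3.3) with lmFit and eBayes, two-sided, without covariates, with Benjamini-Hochberg adjustment over the 23521 probe sets and a threshold of 0.05. The step was tested on simulated data. Single differences were also tested by exact permutation over the 20 choices of 3 of 6 samples. No p was adjusted over the members alone.

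Same-numbered KO and WT samples carry the same second tag in the labels. The deviations of the pairs from their group means correlated at 0.63, 0.74 and 0.19 over the probe sets, all above 0.1, and the numbers were therefore taken to pair the samples. Unlike numbers correlated at -0.66 to 0.51, with KO replicate 1 and WT replicate 3 at 0.51, above the third pair. KO replicate 3 and WT replicate 1 correlated at 0.12, also above 0.1, so that this cut does not set same-numbered samples apart from others. The fit with this block is given where it changes a call.

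The members, their roles, the further lists and the alternatives were chosen with earlier results of these data known. Named are all measured members, Sirt6, up to 4 genes of each further list by p, and the first 3 of each marker list. Other genes of the block fit (Cxcl16, Il18, Onecut1, Pou4f1), and Irf1 and Il15, were chosen on seeing their values. Tried as alternatives were the block, array weights, the interquartile range as a covariate, median centring, quantile normalization again, a trend with a robust prior, the methods' t-test, all probe sets, no dim probe sets, the mean of a gene's probe sets, the probe set of largest variance, and leaving out each sample or both replicates numbered 2. The other experiments of the study were not used here.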

Additional observations from a re-analysis of the deposited data

How the results depend on the processing

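Over the 18 alternatives run, 0 members passed at an adjusted p under 0.05 in each, the smallest being 0.148 from limma for Tnfaip3 with array weights (a fit that stopped before its tolerance), and 7 members kept their sign throughout: Nfkb2, Nfkbie, Ikbkb, Traf2, Tnfaip3 and Cxcl10 lower and Nos2 higher in KO. The other members changed sign in at least 1. At an unadjusted p under 0.05, the members lower in KO numbered 3 with array weights (Ikbkb, Nfkbie and Tnfaip3), 3 with the interquartile range as a covariate (Nfkb2, Tnfaip3 and Cxcl10), 2 with quantile normalization again (Nfkb2 and Tnfaip3), 1 with the replicate block (Tnfaip3) and 1 without both replicates numbered 2 (Ikbkb), while 3 were higher with array weights (Il1a, Ccl3 and Cd40). Over all probe sets the share lower in KO at that level was 9.71% with array weights (9.58% higher), 4.6% with the covariate, 2.62% with quantile normalization again, 3.54% with the block and 2.75% without both replicates numbered 2, against 0.961%. Leaving out 1 sample gave 0 members in either direction.

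Over all probe sets, the number passing at an adjusted p was 5 with array weights, 3 with the replicate block, 2 with the interquartile range as a covariate, 0 with all probe sets tested, with median centring, with the methods' t-test and without both replicates numbered 2, and 0 to 1 when 1 sample was left out, against 1. In these cases of 0 the Sirt6 call was the one lost (log2 difference -2.27 to -2.67). The replicate block changed no other call of a member. In the further lists it raised the genes lower unadjusted to 5 among other inflammatory targets, against 1, to 6 among inner retina neuron markers, against 4, and to 6 among lens markers, against 0.

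The component median moved to -0.21 without WT replicate 2, with a range of -0.209 to -0.054 over the samples left out, the target median ranged from -0.06 to 0.21, and their difference from -0.42 to 0.01. Without both replicates numbered 2 it was -0.29. The cause was not tested. Of 506 differences computed for single members, 4 moved by a replicate SD or more. Without dim probe sets only 13 members could be tested. Signals near background limit what the cytokines can show, and groups of 3 allow no outlier check.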
